A study of Homo sapiens with 9 samples.

Results

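VAMP3 and CD2AP are 2 human genes of membrane traffic whose transcripts were lower after transfection of a miR-199a-3p mimic at both doses used, and they were chosen for that decrease from 14812 genes measured by microarray. For each gene the brightest row of the table was taken, arrays were shifted to 1 median, and all 9 arrays were used by transfection group. Each gene has 1 row, so no choice between rows was needed for either. Because the fall against control picked the genes, the size of that fall is given here as a description, with no test.

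The cells were WM266-4, a human melanoma cell line that was derived from a metastasis and here carried GFP. They were transfected by lipofection with miR-199a-3p mimic at 0.5 nM (n = 3), with that mimic at 0.25 nM (n = 3), or, as control, with another microRNA given at 0.5 nM (n = 3), and RNA was taken 48 h later. All groups share the line, the GFP, the lipid reagent and the presence of a transfected small RNA, and the control matches only the higher dose. The labels call the samples biological triplicates of 1 line, and nothing in the values separates cells that took up the mimic from cells that did not. In RNA pooled from whole wells, a lower level in every cell and a loss in some of the cells cannot be told apart.

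VAMP3 (cellubrevin) is a vesicle SNARE of early and recycling endosomes. SNAREs on a vesicle and on its target membrane zip together and drive fusion, and VAMP3 pairs with syntaxins and SNAP proteins to return cargo such as transferrin receptor and integrins to the cell surface. CD2AP is a scaffold with SH3 domains that links endocytosed receptors and the ubiquitin ligase CBL to actin capping protein, and it is best known from kidney podocytes and T cells. A microRNA guides Argonaute to transcripts that pair with its seed, usually in the 3′ untranslated region, and lowers their stability or translation.

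The mature microRNA that the mimic copies is shown because its seed, bases 2 to 8 from the 5′ end and in capitals here, defines which sites it can pair with. The hairpins MIR199A1 and MIR199A2 both give the first sequence, MIR199B gives the second, and the last is the opposite arm of the miR-199a hairpins, which was not part of the treatment named in the labels. Sequences are from RefSeq (GRCh38.p14), where the mature miR-199a-3p lies on chromosome 1 at 172144554 to 172144575 in MIR199A2 and on chromosome 19 at 10817429 to 10817450 in MIR199A1, both on the minus strand.
hsa-miR-199a-3p: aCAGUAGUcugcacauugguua
hsa-miR-199b-3p: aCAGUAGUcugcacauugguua
hsa-miR-199a-5p: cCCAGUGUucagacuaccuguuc
The 3p arms of miR-199a and miR-199b are identical, while the 5p arm has another seed. The only other mature microRNA of that table with the seed CAGUAGU is hsa-miR-3129-5p, so 3 names share it. A transcript site that pairs with the whole seed reads ACUACUG. Transcript sequences of VAMP3 and CD2AP were not used here, and whether either carries such a site was not tested.

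VAMP3 lies on chromosome 1 (GRCh38.p14, positions 7771296 to 7781432, plus strand) and CD2AP on chromosome 6 (positions 47477789 to 47627263, plus strand), so the genes are not neighbours. The 250 bases before each annotated start are printed as a description. Both genes were chosen for a fall at both doses, so their shared direction is no sign of shared control. TGACGT, the core of the cAMP response element, was searched on both strands and set in capitals.
VAMP3 chr1:7771046-7771295: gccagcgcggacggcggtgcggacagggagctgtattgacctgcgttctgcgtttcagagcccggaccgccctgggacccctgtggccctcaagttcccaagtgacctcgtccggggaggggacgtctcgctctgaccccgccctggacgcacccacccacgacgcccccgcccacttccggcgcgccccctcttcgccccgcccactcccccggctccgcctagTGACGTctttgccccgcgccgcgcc
CD2AP chr6:47477539-47477788: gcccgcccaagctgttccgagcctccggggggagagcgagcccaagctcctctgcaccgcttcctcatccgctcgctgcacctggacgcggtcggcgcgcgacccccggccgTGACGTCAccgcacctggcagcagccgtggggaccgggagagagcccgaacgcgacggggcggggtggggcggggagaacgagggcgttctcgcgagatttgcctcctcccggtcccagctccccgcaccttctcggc
Both windows are rich in G and C, at 73.2% for VAMP3 and 73.6% for CD2AP, against a median of 58% over 35116 promoter windows of that length. The core TGACGT, which 7.10% of those windows hold on either strand, occurs once in VAMP3, starting 25 bases before the start site. In CD2AP its 2 matches overlap to form the palindrome TGACGTCA, which 1.65% of windows hold, starting 138 bases before the start site. GGGCGG, the core of the GC box, was found 4 times in VAMP3 and 3 times in CD2AP, and 42.6% of windows hold it. The E-box CACGTG was not found in either window, and 6.35% of windows hold it. The same holds for the AP-1 motif TGANTCA, held by 6.57% of windows, and for the CCAAT box, held by 32.0%. All motifs were searched on both strands and chosen after the results were known, and a match describes letters only.

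The deposited values limit what any test of these genes can carry. Array medians over the genes with a value on every array ran between 6.15 and 6.31 log2 units before the shift. The 3 arrays of a group are exactly equal in 48.6% of all 44629 rows at 0.5 nM, in 42.0% at 0.25 nM and in 47.8% in control, whereas 0 values are equal between arrays of different groups. With values that tie exactly within groups, p-values over arrays rest on a spread that may not be that of separate cultures. Where all 3 arrays of a group tie, the spread left is that of the shift alone. ITSN1, VAMP5, STX6 and BCAR1 below, for example, all had SDs of 0.0072 at 0.5 nM, 0.011 at 0.25 nM and 0 in control. Their spread holds no variation between cultures. The fit on group means is given beside the p-values over arrays. The error of that fit is the difference between the doses, pooled over genes of similar signal, and a gene's own difference adds little. This error does not measure variation between cultures either, and a gene not called need not differ between doses. VAMP7, for example, changed by -0.20 at 0.5 nM and -0.19 at 0.25 nM, yet was not called by that fit (limma adjusted p = 0.892). In replicate 3 of the 0.25 nM group many values have lost zeros after the decimal point, and values of fewer than 10 digits were left out there (19.1% of genes). The cells carried melanocytic markers, with 7 of 8 listed genes measured and all 7 above the median signal of all genes, 6.25. PMEL, a melanosome matrix protein, for example had means of 12.17 at 0.5 nM, 11.90 at 0.25 nM and 12.19 in control. The 6 measured keratinocyte and epithelial markers all lay below that median, with log2 signals summing over the markers to 24.5 at 0.5 nM (24.4 to 24.6 per array), 25.5 at 0.25 nM and 26.6 in control (26.4 to 26.7 per array). These sums of log2 values are no total of signal, and the markers did not move together. KRT5 was higher at both doses, and KRT14, KRT10 and EPCAM were lower at both. KRT1 and DSG3 were lower at 0.5 nM and higher at 0.25 nM. The part of these markers in the results below was not tested. Of the markers of other lineages, CD68 lay above the median, with means of 9.58 at 0.5 nM, 9.37 at 0.25 nM and 9.95 in control, as did KDR, at 8.42, 8.36 and 8.33.

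VAMP3 had the larger fall at both doses. On the shifted log2 scale it read 9.78, 9.47 and 9.36 on the 0.5 nM arrays, 9.12 and 8.99 on the 0.25 nM arrays that could be used, and 10.36, 10.36 and 10.34 on the control arrays. Every mimic array lay below every control array, and the 0.25 nM arrays lay below the 0.5 nM arrays without overlap. The gap between the highest 0.5 nM array and the lowest control array was 0.56, that between the highest 0.25 nM array and the lowest control array was 1.22, and that between the doses was 0.25. As means these are 9.54 ± 0.22 (SD, n = 3) at 0.5 nM, 9.06 ± 0.086 (SD, n = 2) at 0.25 nM and 10.35 ± 0.011 (SD, n = 3) in control. Before the shift, control replicates 1 and 2 were exactly equal, so the control SD rests on fewer distinct values than arrays. The differences from control were -0.81 and -1.30 log2 units at 0.5 nM and 0.25 nM, which leaves 56.9% and 40.7% of the control signal.

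The value missing for VAMP3 is that of 0.25 nM replicate 3. The deposited number there is 9.75280709, of 9 digits, and replicate 2 of that group holds 9.075280709, which is the same string once the zero after the point is dropped. With the number used as deposited, that array would lie above replicates 2 and 3 of the 0.5 nM group, and the change at 0.25 nM would be -1.10 in place of -1.30. With the zero restored the change is -1.30. In either case the array stays below all control arrays.

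CD2AP was lower by less, with a similar order of groups. It read 8.51, 8.50 and 8.46 on the 0.5 nM arrays, 8.27, 8.13 and 8.13 on the 0.25 nM arrays, and 9.17, 9.09 and 9.07 on the control arrays. Again no mimic array reached a control array and the doses did not overlap, with gaps of 0.56 from the 0.5 nM arrays to control, 0.80 from the 0.25 nM arrays to control and 0.19 between doses. The means were 8.49 ± 0.025 at 0.5 nM, 8.17 ± 0.082 at 0.25 nM and 9.11 ± 0.052 in control (SD, n = 3 each). The differences from control were -0.62 and -0.94 log2 units, or 65.0% and 52.2% of the control signal at 0.5 nM and 0.25 nM. Before the shift, replicates 1 and 2 at 0.5 nM and replicates 2 and 3 at 0.25 nM were exactly equal, so its SDs at these doses rest on fewer distinct values than arrays.

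**Figure D1:**
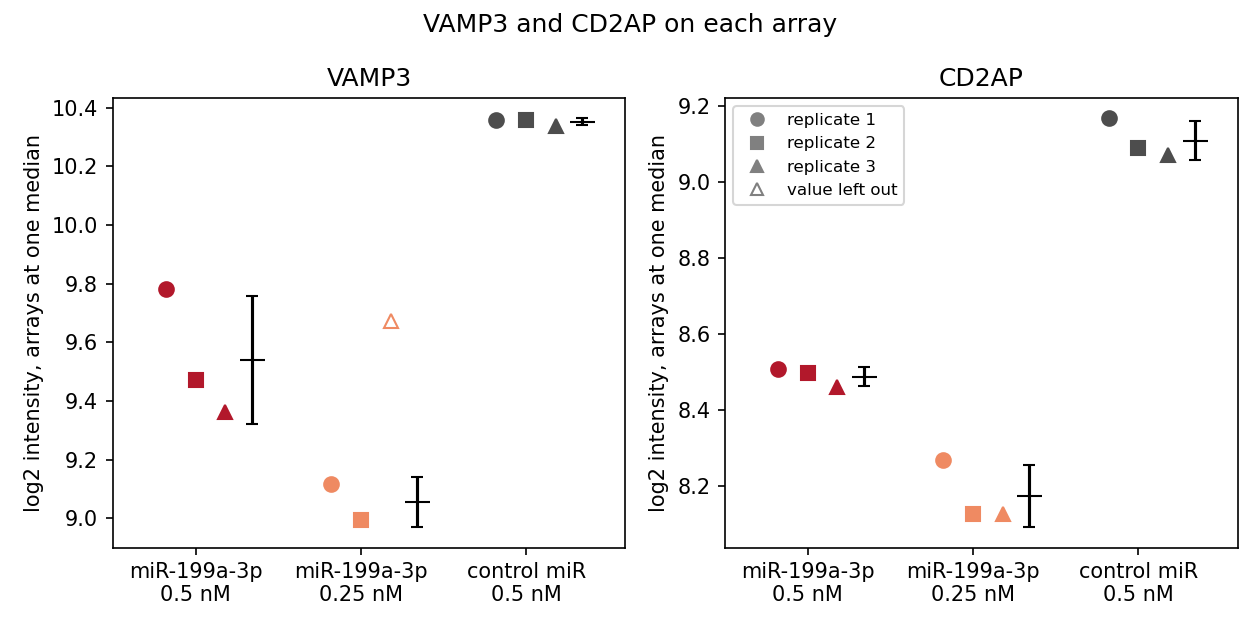
Log2 intensity of VAMP3 (left) and CD2AP (right) on each array, with arrays at one median; symbols give the replicate, the open triangle is the VAMP3 value left out, and bars give the mean and SD of the values kept. For both genes all mimic arrays lie below all control arrays, by at least 0.56 log2 units, and the 0.25 nM arrays that were kept lie lowest.

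Lying below control with no overlap was common in these data and does not by itself mark a gene. For scale, limma called 63% of all genes changed at 0.5 nM and 64.1% at 0.25 nM, in either direction. All 0.5 nM arrays were below all control arrays in 34.8% of genes, all 0.25 nM arrays in 39.1%, and arrays of both doses in 22.3%. All 0.25 nM arrays lay below all 0.5 nM arrays in 40.5% of genes. The full order seen for VAMP3 and CD2AP, with 0.25 nM below 0.5 nM and 0.5 nM below control without overlap, was met by 9.34% of genes. Among the 3309 genes with both doses below control, 1857 (56.1%) lay further down at 0.25 nM, so the lower dose giving the larger fall was no rarity either. The fall at 0.25 nM was 1.59 times that at 0.5 nM in log2 units for VAMP3 and 1.51 times for CD2AP. Neither dose has a separate control, and both falls are taken from the same 3 control arrays.

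Fewer genes matched the size of the fall than its presence. Both genes were chosen for that fall, so the ranks and counts below only describe it. VAMP3 ranked 13th from the lowest of 14812 genes at 0.25 nM and 132nd at 0.5 nM. CD2AP ranked 83rd and 311th at 0.25 nM and 0.5 nM. Only 5 genes, VAMP3 included (0.0338%), were at least as low as VAMP3 at both doses, and the other 4, HNRNPCL1, KRTAP4-8, CPEB2-DT and SH2D1A, had signals of 2.97 to 3.71, below the median of all genes. For CD2AP the count was 31 genes (0.209%), of which 7 lay above the median signal: CD2AP and VAMP3 themselves, SGPL1, ITPK1, SLC49A4, RNF14 and L1CAM. SGPL1 is the sphingosine phosphate lyase and ITPK1 an inositol phosphate kinase, while RNF14 is a ubiquitin ligase.

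**Figure D2:**
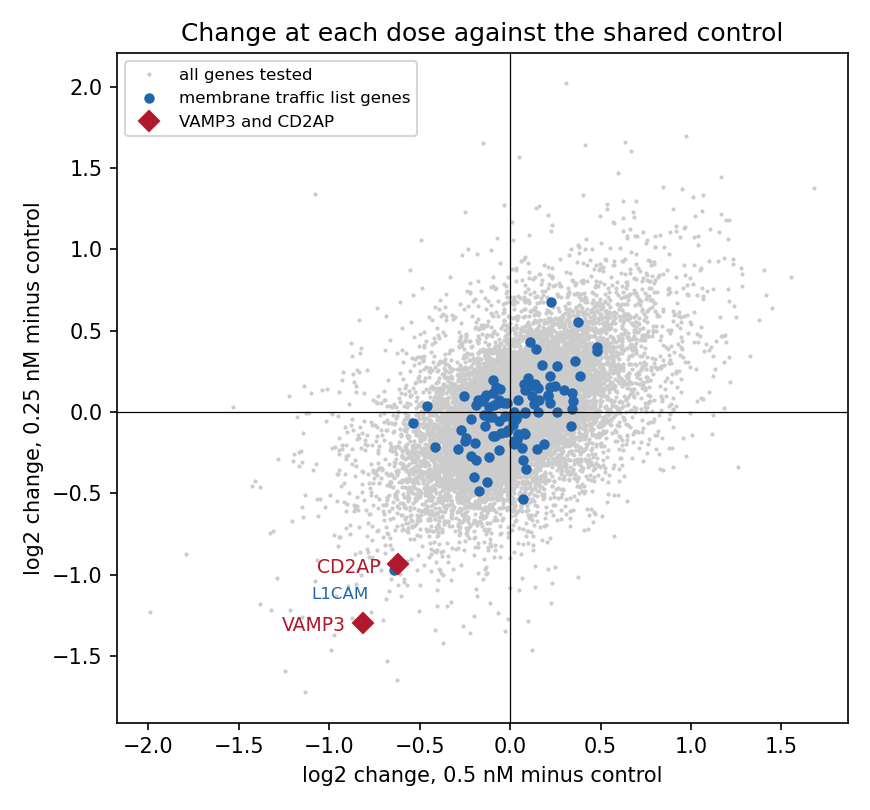
Log2 change of each gene at 0.5 nM (x axis) and 0.25 nM (y axis) against the shared control, for all 14812 genes (grey), the 99 measured genes of 6 membrane traffic lists (blue) and VAMP3 and CD2AP (red). VAMP3 at -0.81 and -1.30 and CD2AP at -0.62 and -0.94 lie toward the low end, and L1CAM is the only list gene near them. Over all genes the changes run down to -1.99 at 0.5 nM and -1.72 at 0.25 nM.

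The genes differed in how their arrays spread. In 48.6% of all rows at 0.5 nM the 3 arrays tie exactly, which leaves an SD of 0.0072 from the shift alone. The percentages below therefore partly tell tied genes from others. The SD of VAMP3 at 0.5 nM, 0.22, was larger than that of 95.2% of genes in that group, where the median SD was 0.0095. In control its SD of 0.011 was larger than that of 51.6% of genes. The 0.5 nM spread came mainly from replicate 1, the highest of the 3 arrays, and without that array the change at 0.5 nM was -0.94 in place of -0.81. For CD2AP the SD was above that of 57.7% of genes at 0.5 nM, 74.8% at 0.25 nM and 67.1% in control. Replicate 1 was the highest array for VAMP3 in both mimic groups, and for CD2AP at 0.25 nM and in control, while at 0.5 nM the deposited CD2AP values of replicates 1 and 2 were equal. Leaving out any one array moved the CD2AP change between -0.64 and -0.59 at 0.5 nM and between -0.98 and -0.90 at 0.25 nM, and that of VAMP3 between -0.94 and -0.73, and between -1.36 and -1.24.

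**Figure D3:**
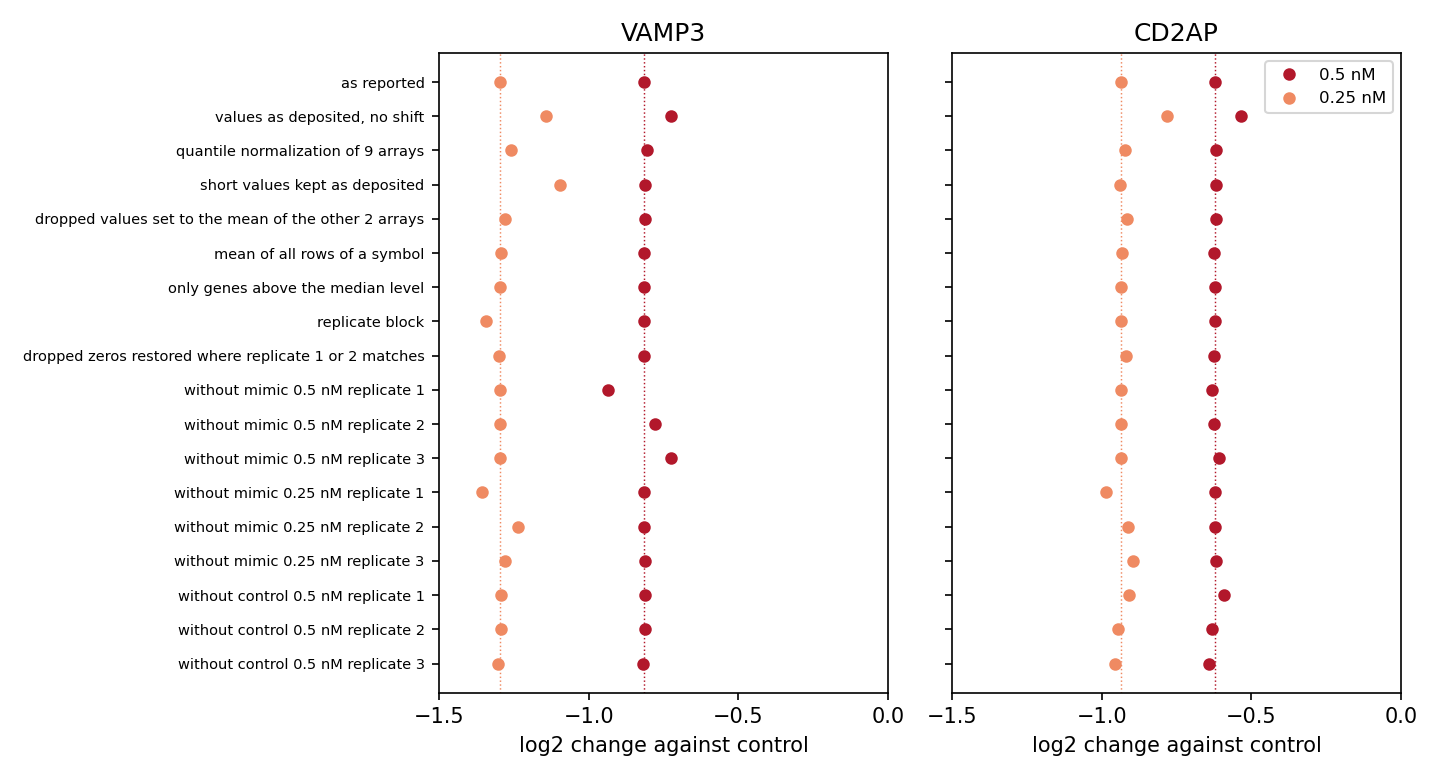
Log2 change of VAMP3 (left) and CD2AP (right) against control at 0.5 nM and 0.25 nM under each setting tried, with dotted lines at the reported values. All values lie between -1.36 and -0.53, and the 0.25 nM change is the larger fall in every setting for both genes.

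None of the other SNAREs measured fell as far as VAMP3, and few of all genes did. The list of SNAREs and their regulators had 40 genes, 31 of them measured. The changes ran from -0.46 to 0.48 at 0.5 nM and from -0.40 to 0.68 at 0.25 nM. So 0 of 31 reached the change of VAMP3 or of CD2AP at either dose. Of all 14812 genes, 132 reached that of VAMP3 at 0.5 nM and 13 at 0.25 nM. For CD2AP these counts were 311 and 83. At 0.5 nM limma called 9 lower and 11 higher, where it called 29.8% of all genes lower and 33.2% higher. At 0.25 nM it called 9 lower and 12 higher, against 33.9% and 30.3% of all genes. The median change was 0.04 at 0.5 nM and 0.07 at 0.25 nM, beside 0.01 and -0.02 over all genes. When each group was counted as a single unit and both doses were set against control, limma called 0 of the 31 (1 at an unadjusted p under 0.05), and 0.101% of all genes lower and 0.0203% higher.

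Among the VAMP proteins, VAMP2, the synaptic vesicle SNARE closest to VAMP3 in function, had values of 6.47, 6.34 and 6.45 at 0.5 nM, 6.43 and 6.20 at 0.25 nM, and 6.73, 6.54 and 6.54 in control. Its changes were -0.19 and -0.29, called at 0.25 nM (limma adjusted p = 0.0317) and not at 0.5 nM (limma adjusted p = 0.0953), where blocking on replicate changed the call (limma adjusted p = 0.0196). VAMP7, a SNARE of late endosomes and lysosomes, was lower by about the same amount at both doses, at -0.20 and -0.19 (limma adjusted p = 1.64e-05 and 1.86e-05). VAMP4, a SNARE of the trans-Golgi network, went the other way, with 7.92, 7.91 and 7.91 at 0.5 nM, 7.84 and 7.82 at 0.25 nM, and 7.43 on each control array. It was higher by 0.48 and 0.40 (limma adjusted p = 5.80e-08 and 2.29e-07). VAMP5, found mainly in muscle, was higher by 0.21 and 0.11 (limma adjusted p = 6.11e-07 and 2.75e-05). VAMP8, an endosomal SNARE, stood at 0.08 and 0.17 and was called only at 0.25 nM (limma adjusted p = 0.0282), and VAMP1 lay at -0.08 and 0.15, with opposite calls (limma adjusted p = 0.0274 and 0.000882). None of these passed with groups as units (limma adjusted p from 0.518 for VAMP4 to 0.994 for VAMP1).

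The syntaxins and other SNARE genes moved in both directions. STX4, the plasma membrane syntaxin, lay at 0.08 at 0.5 nM and -0.13 at 0.25 nM and was not called at either dose (limma adjusted p = 0.322 and 0.118). With replicate as a blocking factor both passed, in opposite directions (limma adjusted p = 0.00278 and 0.000400). STX6, a syntaxin of the trans-Golgi network and endosomes, was higher by 0.08 and 0.14 (limma adjusted p = 0.000129 and 6.45e-06). STX12, an endosomal syntaxin, lay at 0.01 and -0.05, not called without the block (limma adjusted p = 0.689 and 0.118) and called with it at 0.25 nM (limma adjusted p = 0.0276). VTI1A, a SNARE of the Golgi and endosomes, was higher at 0.5 nM by 0.21 (limma adjusted p = 0.0156) and lay at 0.10 at 0.25 nM (limma adjusted p = 0.210). VPS45, a regulator of endosomal syntaxins, was higher by 0.33 at 0.5 nM (limma adjusted p = 1.68e-05) and lower at 0.25 nM, at -0.09 (limma adjusted p = 0.0219). STX2 had the lowest mean change among the SNAREs above the median signal, at -0.20 and -0.40 (limma adjusted p = 0.000215 and 1.07e-05). STXBP3, which binds STX4, was lower, at -0.24 and -0.16 (limma adjusted p = 3.84e-07 and 4.18e-06), while YKT6 and STX18 were higher, at 0.34 and 0.12, and at 0.14 and 0.39. SNAP23 and STX16 were not analysed here.

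**Figure D4:**
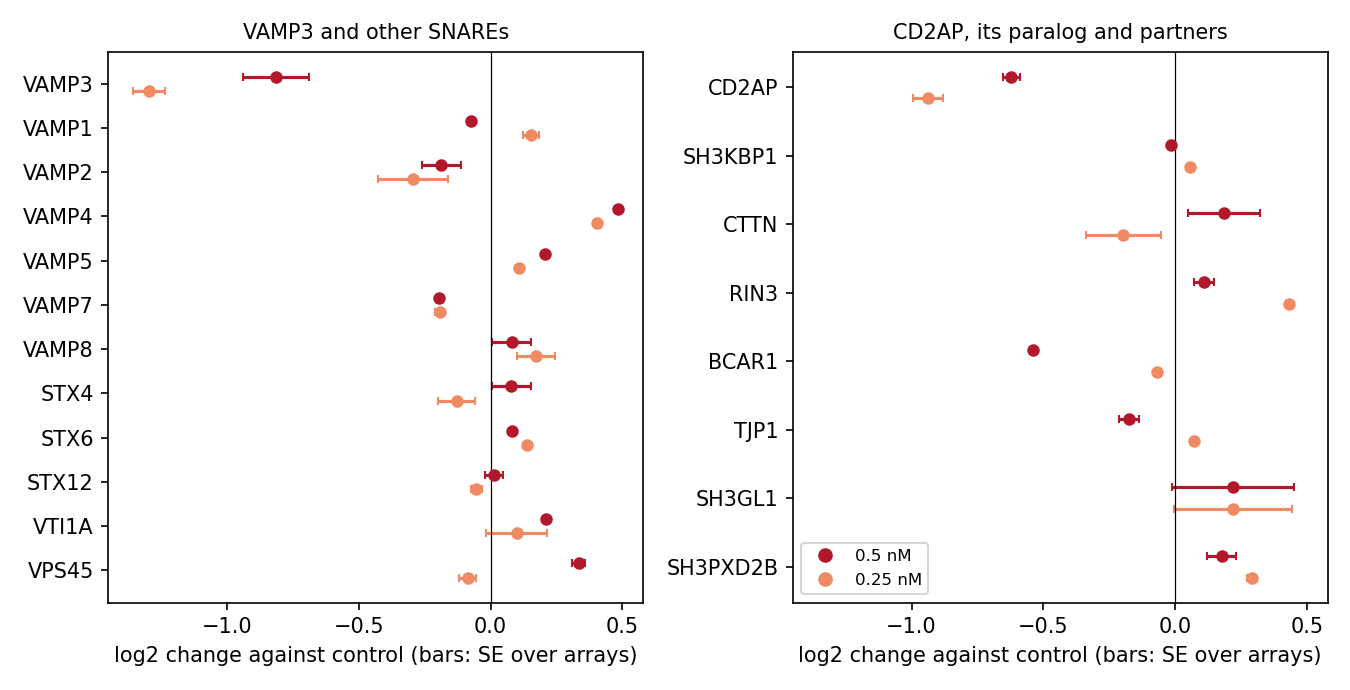
Log2 change against control at 0.5 nM and 0.25 nM. VAMP3 is shown with 11 genes of the list of SNAREs and their regulators (left), and CD2AP with its paralog and partners (right). Bars are the SE of the difference over arrays, and arrays that tie exactly make some bars too short to see. VAMP3 and CD2AP lie below -0.6 at both doses, and of the others only BCAR1 at 0.5 nM, at -0.54, comes near.

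Of 40 listed genes of the recycling endosome 28 were measured. The listed RAB GTPase genes were not analysed here. At 0.5 nM 8 were lower and 7 higher by limma, against 29.8% and 33.2% of all genes. At 0.25 nM 10 were lower and 4 higher, against 33.9% and 30.3% of all genes, and the median changes were 0.02 and -0.08 at 0.5 nM and 0.25 nM. With groups as units 0 of 28 passed (limma, 1 at an unadjusted p under 0.05), and 0 were as low as CD2AP at either dose. Of all 14812 genes, 311 were as low as CD2AP at 0.5 nM and 83 at 0.25 nM. EXOC2, a subunit of the exocyst that tethers recycling vesicles, read 8.89, 8.87 and 8.80 at 0.5 nM, 8.81 on each array at 0.25 nM, and 8.50 on each control array, a rise of 0.36 and 0.31 (limma adjusted p = 2.69e-06 and 5.89e-06). MICALL1, a scaffold of recycling tubules, was higher by 0.26 and 0.28. MYO5C, a myosin motor, was lower, at -0.13 and -0.43 (limma adjusted p = 0.0419 and 0.000100), and VPS50, of a tether for recycling, was lower at -0.22 and -0.27. EHD3, a membrane-shaping ATPase, had a mean change of -0.41 at 0.5 nM and -0.21 at 0.25 nM, but its arrays ran from 6.26 to 6.79 at 0.5 nM, from 6.11 to 7.35 at 0.25 nM and from 6.58 to 7.27 in control, and it was not called (limma adjusted p = 0.334 and 0.617). KIF16B, an endosomal kinesin, lay at 0.22 and 0.15 and was not called either (limma adjusted p = 0.156 and 0.318).

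Among cargo that recycles to the surface, 4 of 15 listed genes were measured, and L1CAM fell furthest among them. The genes of the transferrin receptor and of the listed integrins were not analysed here, so the cargo named above for VAMP3 was not covered. By limma 4 were lower at 0.5 nM, where 29.8% of all genes were, and 2 were lower and 1 higher at 0.25 nM, where 33.9% and 30.3% of all genes were, with medians of -0.22 and -0.07. L1CAM, an adhesion molecule of nerve and invasive tumour cells, read 9.13, 8.70 and 8.64 at 0.5 nM, 8.59, 8.46 and 8.44 at 0.25 nM, and 9.54, 9.43 and 9.43 in control. No mimic array reached control, and as for VAMP3 the 0.5 nM replicate 1 array was the highest of its group. The fall was -0.64 ± 0.13 at 0.5 nM and -0.97 ± 0.13 at 0.25 nM (SE; limma adjusted p = 0.00312 and 0.000328), and L1CAM was the 1 gene of all lists that passed with groups as units (limma adjusted p = 0.00666). That call was lost without 0.25 nM replicate 1 (limma adjusted p = 0.393), with values as deposited and no shift (limma adjusted p = 0.560), after quantile normalization (limma adjusted p = 0.280) and without the intensity trend (limma adjusted p = 0.840). Over 17 alternatives its adjusted p ran from 0.000128 to 0.840. L1CAM was put on the list with its fall in these data already known, so its call is no independent evidence for the list. MMP14, a membrane-bound matrix protease that VAMP3 vesicles can carry, was lower by limma, at -0.25 and -0.18 (limma adjusted p = 1.05e-05 and 7.24e-05). CD44 was lower at 0.5 nM only, at -0.19 (limma adjusted p = 0.0304), and lay at 0.05 at 0.25 nM.

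Of 22 listed partners of CD2AP 10 were measured, and 0 were as low as CD2AP at either dose. Only 311 of all 14812 genes were as low at 0.5 nM, and 83 at 0.25 nM. At 0.5 nM 3 were lower and 4 higher by limma, against 29.8% and 33.2% of all genes. At 0.25 nM 1 was lower (2 when replicate was blocked) and 5 were higher, against 33.9% and 30.3% of all genes, with medians of 0.12 and 0.06. With groups as units 0 of 10 passed (limma, also 0 at an unadjusted p under 0.05). SH3KBP1 (CIN85), the paralog of CD2AP, read 8.81, 8.80 and 8.80 at 0.5 nM, 8.86, 8.88 and 8.89 at 0.25 nM, and 8.82 on each control array. Its changes of -0.02 and 0.06 (limma adjusted p = 0.196 and 0.00134) are far smaller than those of CD2AP. CTTN, the actin-binding protein cortactin, lay at 0.19 and -0.20 with overlapping arrays and was not called (limma adjusted p = 0.212 and 0.182), but passed when replicate was blocked, higher at 0.5 nM and lower at 0.25 nM (limma adjusted p = 0.0172 and 0.0134). RIN3, an exchange factor for RAB5 proteins, was higher by 0.11 and 0.43 (limma adjusted p = 0.0158 and 9.58e-06). BCAR1, a scaffold of focal adhesions, fell by 0.54 at 0.5 nM (limma adjusted p = 5.25e-09) and by 0.07 at 0.25 nM (limma adjusted p = 0.000314). TJP1, a tight junction scaffold, was lower at 0.5 nM, at -0.18 (limma adjusted p = 0.00174), and lay at 0.07 at 0.25 nM (limma adjusted p = 0.0804). SH3GL1, an endophilin, lay at 0.22 at both doses and was not called (limma adjusted p = 0.375 and 0.420). SH3PXD2B, a scaffold of invadopodia, was higher by 0.18 and 0.29 (limma adjusted p = 0.00884 and 0.000668). The genes CBL, PDCD6IP, ANLN and those of the capping protein subunits were not analysed here.

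Genes of the branched actin list and of the clathrin and early endosome list were called in both directions. Of all genes 29.8% were lower and 33.2% higher at 0.5 nM, and 33.9% lower and 30.3% higher at 0.25 nM. Of 24 branched actin genes 11 were measured, with 5 lower and 1 higher at 0.5 nM (5 and 2 when replicate was blocked) and 4 lower and 3 higher at 0.25 nM by limma, and medians of 0.02 and -0.03. WASL, which activates the ARP2/3 complex, was lower at 0.5 nM, at -0.22 (limma adjusted p = 0.00474), and lay at -0.04 at 0.25 nM (limma adjusted p = 0.445). WASHC4, of the endosomal WASH complex, was lower at 0.5 nM, at -0.14 (limma adjusted p = 0.00834), and lay at -0.02 at 0.25 nM. WASHC3 of that complex was lower, at -0.06 and -0.05 (limma adjusted p = 0.0197 and 0.0270), a call lost at 0.25 nM when replicate was blocked (limma adjusted p = 0.0510). WASHC5 lay at 0.14 at 0.5 nM (limma adjusted p = 0.0584, and 0.0283 when replicate was blocked) and was higher by 0.17 at 0.25 nM (limma adjusted p = 0.0274). ACTR3 and PFN1, bright actin regulators, stayed within 0.05 of control at both doses. Of the listed subunits of the ARP2/3 complex only ACTR3 was analysed here. Of 30 genes of clathrin coats and early endosomes 15 were measured, with medians of 0.07 and 0.05. By limma 3 were lower and 7 higher at 0.5 nM, and 5 lower and 5 higher at 0.25 nM. The listed genes of the clathrin chains, the AP2 adaptor, RAB5, RAB7A and RAB21 were not analysed here. With groups as units limma called 0 of the 11 (0 at an unadjusted p under 0.05) and 0 of the 15 (2 at an unadjusted p under 0.05), where 965 of all 14812 genes had an unadjusted p under 0.05. ITSN1, an endocytic scaffold, read 8.20, 8.19 and 8.19 at 0.5 nM, and 8.39, 8.37 and 8.37 at 0.25 nM. On each control array it read 7.82, so the rise was 0.38 and 0.55 (limma adjusted p = 2.61e-08 and 4.47e-09). Before the shift its arrays were exactly equal within each group, so its spread holds no variation between cultures. DNM1, a dynamin, was higher by 0.48 and 0.38, and DNM2, the dynamin that cuts endocytic vesicles in most cells, was lower, at -0.29 and -0.23 (limma adjusted p = 1.08e-06 and 4.15e-06). EEA1, the early endosome tether, was higher by 0.30 and 0.13. RABGEF1, an exchange factor for RAB5, was lower at 0.5 nM, at -0.14 (limma adjusted p = 0.0110), and lay at -0.09 at 0.25 nM (limma adjusted p = 0.0643). ANKFY1, a RAB5 effector, was lower at 0.25 nM, at -0.28 (limma adjusted p = 0.00103), and lay at -0.11 at 0.5 nM (limma adjusted p = 0.0560).

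Over the 6 lists together, 99 of 171 genes were measured. At 0.5 nM 32 were lower and 30 higher, and at 0.25 nM 31 were lower and 30 higher, near the shares over all genes. Their medians were 0.02 and -0.00, and L1CAM was the only one of the 99 as low as CD2AP at either dose. Over all 14812 genes, 311 were as low at 0.5 nM and 83 at 0.25 nM. Without the shift of the arrays the split was 14 lower and 46 higher at 0.5 nM, and 10 lower and 56 higher at 0.25 nM. Of all 14812 genes 2975 were then lower and 6663 higher at 0.5 nM, and 2531 lower and 7516 higher at 0.25 nM.

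The genes whose pattern was most like that of each member were found by the root mean square difference, over 8 arrays, of the deviations from each gene's own control mean. For VAMP3 the nearest was RNF14, at 0.10 log2 units, with changes of -0.87 and -1.26, followed by KRTAP4-8, FLG2, LINC00240 and PAPOLB at 0.12 to 0.14. RNF14 was the only one of these 5 above the median signal. It read 8.85, 8.75 and 8.71 at 0.5 nM, 8.38, 8.41 and 8.35 at 0.25 nM, and 9.74, 9.57 and 9.61 in control. For CD2AP the nearest were CBLN2, C4orf17, PON2, CHI3L1 and LINC01133, at 0.061 to 0.077, of which PON2, a paraoxonase, was the only one above the median signal, with changes of -0.67 and -0.82. The median over all genes was 0.83 for VAMP3 and 0.61 for CD2AP. VAMP3 and CD2AP differed from each other by 0.25. That put CD2AP 30th of 14811 genes in likeness to VAMP3, and VAMP3 294th in likeness to CD2AP. Both were chosen for a fall on these same arrays, so these ranks follow in part from that choice and only describe it.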

How the data were processed

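The authors deposited 1 table with a log2 intensity for each of 44629 rows on 9 arrays. Per the submitters' processing notes, RMA and the packages affy and oligo were used, with no version given; how these steps followed each other was not stated. The platform annotation gives 1 gene symbol to 15835 rows, several to 0, and leaves 28794 unnamed; all 15835 gene IDs matched the RefSeq gene table. The brightest row per symbol was kept (14812 genes), values of fewer than 10 digits were dropped in 0.25 nM replicate 3, and arrays were shifted to 1 median over the 11977 genes with a value on every array.

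Genes were tested with limma 3.58.1 in R 4.3.3 (group means over 9 arrays, two-sided, Benjamini-Hochberg over all genes, threshold 0.05). This fit called 63% of genes at 0.5 nM and 64.1% at 0.25 nM. A further fit used the 3 group means as units with an intensity trend, both doses against control, and called 0.122%. Its error is the difference between the doses, pooled over genes of similar signal with 33.1 prior degrees of freedom. A gene's own difference adds little to that error. The p-values of this fit therefore do not measure variation between transfected cultures. Both fits were also run on simulated data with independent normal noise. That simulation had no tied arrays and no pairing, so it does not show how the fits behave on such values. Same-numbered arrays deviated together (9 pairs, r from 0.14 to 0.59). Arrays of other numbers had r from -0.46 to 0.36, so the ranges overlap. The highest of these was between control replicate 2 and 0.25 nM replicate 3. As each same-number r was over 0.1, a block on the replicate number, taken from the sample titles, was run as an alternative. Counts and p-values given without mention of the block ignore that pairing.

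The members, the 6 gene lists and the group-level fit were chosen with earlier results of these data known. Named are the members; the VAMP genes, SNARE partners and CD2AP partners; in each list the 3 lowest and 3 highest mean changes above the median signal; and the 5 genes most like each member. Precision is limited by 3 arrays per group.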

Additional observations from a re-analysis of the deposited data

How the results depend on the processing

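VAMP3 and CD2AP stayed below control at both doses in every setting run. With values as deposited and no shift, the changes were -1.14 for VAMP3 at 0.25 nM, and -0.53 and -0.78 for CD2AP at 0.5 nM and 0.25 nM, because the shift itself takes 0.09 and 0.16 from each change; 2531 genes were then lower and 7516 higher at 0.25 nM, and of the list genes 14 were lower and 46 higher at 0.5 nM and 10 lower and 56 higher at 0.25 nM. With short values kept, VAMP3 at 0.25 nM stood at -1.10. Testing only genes above the median signal left 2064 lower and 1699 higher at 0.5 nM and 2290 and 1641 at 0.25 nM, fewer because fewer were tested. The replicate block gave VAMP3 changes of -0.81 and -1.34 and CD2AP changes of -0.62 and -0.94, and beside the calls given above it moved no list count by over 1.5 times except those printed with it.

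The fit with groups as units, 15 lower and 3 higher as reported, was the least stable. By limma it called 0 lower, 0 higher and 0 list genes without the shift (130 lower and 1075 higher at an unadjusted p under 0.05), after quantile normalization (408 and 437) and without the intensity trend (346 and 521). It called 23 lower and 12 higher with short values kept, 25 and 10 with dropped values set to the mean of the other arrays, 29 and 10 with rows averaged per symbol, and 26 and 10 with dropped zeros restored, a setting added after the data were seen. Leaving out 1 array gave 0 to 32 lower, 0 to 13 higher and 0 to 1 list genes lower: 7 and 0 without 0.5 nM replicate 1, 32 and 11 without its replicate 2, 32 and 13 without its replicate 3, 0 and 0 without 0.25 nM replicate 1 (394 and 415 at an unadjusted p under 0.05), 9 and 2 without its replicate 2, 10 and 2 without its replicate 3, and 24 and 7 without control replicate 1. RNF14 and PON2 lost their calls there in the same 4 settings as L1CAM. The cause was not tested.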
